A study of Mus musculus with 14 samples.

Results

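Mitochondrial ribosomal protein genes were examined in satellite cells, which rebuild skeletal muscle after injury, in 14 RNA-seq libraries of 1000 sorted cells each. The members are the protein-coding mouse genes whose symbol is Mrpl or Mrps followed by a number and at most 1 letter. The rule found 78 of the 49671 genes in each of the 2 count tables, and 77 of them had enough counts to be tested in each table. They lie on 17 chromosomes, with 11 of them on chromosome 11.

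The first table holds 4 libraries labelled FosGFP+ and 4 labelled FosGFP-, from C57BL/6J mice aged 4 months. FosGFP is a reporter of Fos, an immediate early gene that encodes a subunit of the AP-1 transcription factor. The second table holds 3 libraries labelled FoscKO, a conditional knockout of Fos, and 3 labelled Control, from C57BL/6J mice aged 6 months. The driver of the knockout and the exons it removes are not given in the sources used here. Fresh cells came from the triceps, pectoral and hind-limb muscles at rest. They carried CXCR4 and B1-Integrin at the sort, and cells with Sca1, Ter119, CD11b, CD31 or CD45 were left out. The design text names 4 mice for the first set and 3 for the second, and writes FosGFP+ in the gate of FoscKO and of Control cells alike. Which mouse gave which library is not in the labels, so p-values measure the spread between libraries, which may be technical in part.

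The mitochondrial ribosome translates the few messenger RNAs encoded by mitochondrial DNA, all of which specify subunits of the oxidative phosphorylation complexes. Its ribosomal RNAs are made inside the organelle, whereas all of its proteins are encoded in the nucleus, translated in the cytosol and imported. The large subunit joins amino acids and the small subunit reads the message. Part of the proteins descend from those of bacterial ribosomes and the rest were gained in the mitochondrial lineage. Satellite cells at rest are known for few mitochondria, whose mass grows as the cells leave quiescence.

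Promoter sequence could be set beside members called higher in FosGFP+ libraries. RefSeq promoters (build GRCm38.p6, from 250 bases before to 50 after the annotated start) were found for 69 of the 78 members and for 17492 protein-coding genes in all. A set of 4 motifs of factors known to act on genes for mitochondrial proteins, or on growth genes, was searched on both strands: the NRF1 core (GCGCA, any base, then GCGC), the ETS core CCGGAAG, read by GABP, the YY1 core AAGATGGC and the E-box CACGTG, read by MYC. The windows below belong to the 3 members that were higher in FosGFP+ libraries in every fit tried (Mrps30, Mrps2 and Mrps6), to Mrpl12, which passed in all but 1 of them, and to 3 called members that hold motifs of 2 kinds (Mrpl57, Mrps18a and Mrpl17). They are written 5′ to 3′ on the strand of the gene, with a motif in capitals. Mrps30 is at chr13:118387203-118387502 (minus strand), Mrps2 at chr2:28467816-28468115 (plus) and Mrps6 at chr16:92058086-92058385 (plus). Mrpl12 is at chr11:120484387-120484686 (plus), Mrpl57 at chr14:57825989-57826288 (plus), Mrps18a at chr17:46110754-46111053 (plus) and Mrpl17 at chr7:105811038-105811337 (minus).
Mrps30: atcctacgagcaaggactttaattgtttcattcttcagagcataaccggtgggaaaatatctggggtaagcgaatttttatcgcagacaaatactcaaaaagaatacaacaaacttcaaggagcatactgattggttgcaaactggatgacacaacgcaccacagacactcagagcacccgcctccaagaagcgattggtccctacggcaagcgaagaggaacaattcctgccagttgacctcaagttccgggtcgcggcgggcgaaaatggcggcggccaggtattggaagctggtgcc
Mrps2: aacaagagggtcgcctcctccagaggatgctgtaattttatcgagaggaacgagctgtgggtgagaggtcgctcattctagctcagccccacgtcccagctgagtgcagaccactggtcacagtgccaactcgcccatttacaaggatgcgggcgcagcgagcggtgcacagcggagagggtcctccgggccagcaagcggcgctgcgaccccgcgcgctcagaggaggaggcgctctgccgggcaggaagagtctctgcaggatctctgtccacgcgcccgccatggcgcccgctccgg
Mrps6: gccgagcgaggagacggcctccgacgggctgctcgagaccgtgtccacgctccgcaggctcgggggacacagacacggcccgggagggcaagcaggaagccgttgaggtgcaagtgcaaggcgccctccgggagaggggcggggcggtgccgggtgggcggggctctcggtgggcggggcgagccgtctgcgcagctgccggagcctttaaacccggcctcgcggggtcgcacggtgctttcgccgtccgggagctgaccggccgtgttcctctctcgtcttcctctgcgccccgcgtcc
Mrpl12: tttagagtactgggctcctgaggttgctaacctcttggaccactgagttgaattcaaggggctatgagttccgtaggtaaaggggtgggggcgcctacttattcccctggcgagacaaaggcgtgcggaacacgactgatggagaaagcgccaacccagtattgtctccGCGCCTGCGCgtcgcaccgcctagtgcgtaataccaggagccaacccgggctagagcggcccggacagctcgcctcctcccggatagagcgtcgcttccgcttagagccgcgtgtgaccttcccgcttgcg
Mrpl57: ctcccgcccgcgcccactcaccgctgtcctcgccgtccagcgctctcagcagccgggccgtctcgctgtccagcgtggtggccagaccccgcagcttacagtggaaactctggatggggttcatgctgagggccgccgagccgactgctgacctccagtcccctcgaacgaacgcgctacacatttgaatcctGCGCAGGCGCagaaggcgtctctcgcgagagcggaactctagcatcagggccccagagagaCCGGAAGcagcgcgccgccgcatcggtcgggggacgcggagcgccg
Mrps18a: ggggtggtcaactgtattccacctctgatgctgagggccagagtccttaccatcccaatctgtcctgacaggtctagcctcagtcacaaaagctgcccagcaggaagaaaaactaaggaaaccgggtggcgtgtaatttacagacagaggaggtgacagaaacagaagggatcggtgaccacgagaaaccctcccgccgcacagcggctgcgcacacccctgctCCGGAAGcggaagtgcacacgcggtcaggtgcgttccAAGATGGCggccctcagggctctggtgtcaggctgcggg
Mrpl17: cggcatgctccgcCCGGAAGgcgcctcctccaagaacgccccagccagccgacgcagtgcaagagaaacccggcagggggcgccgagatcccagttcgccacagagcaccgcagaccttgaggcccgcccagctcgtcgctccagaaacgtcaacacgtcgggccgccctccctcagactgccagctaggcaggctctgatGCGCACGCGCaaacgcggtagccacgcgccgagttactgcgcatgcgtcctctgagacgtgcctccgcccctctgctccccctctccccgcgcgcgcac

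The capitals mark an NRF1 core in Mrpl12, an NRF1 core followed by an ETS core in Mrpl57, an ETS core followed by a YY1 core in Mrps18a, and an ETS core followed by an NRF1 core in Mrpl17. None of the 4 motifs is written in the Mrps30, Mrps2 and Mrps6 windows. Bases G and C made up 49.3% of the Mrps30 window and 73.7% of the Mrps6 window. The ETS core was present in 37.7% of member promoters, against 12.9% of all protein-coding promoters. The NRF1 core was present in 18.8% of member promoters, against 7.17% of all, and the YY1 core in 17.4%, against 3.57%. The E-box was present in 7.25% of member promoters, against 8.91% of all. At least 1 motif was found in 45 of the 69 member promoters (65.2%), against 27.3% of all, and no motifs of different kinds overlapped in a member. Of the 13 members with a promoter that were called higher in FosGFP+ libraries, 7 held a motif, with an ETS core in 4 (30.8%), an NRF1 core in 3 (23.1%), a YY1 core in 2 (15.4%) and an E-box in 1 (7.69%). The other 56 members held an ETS core in 22 (39.3%), an NRF1 core in 10 (17.9%), a YY1 core in 10 (17.9%) and an E-box in 4 (7.14%).

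Some of the members also had a neighbour that starts close by and runs the other way. Neither the share of such members nor the motif shares were set against genes of like expression. In the GENCODE annotation, 17 of 78 members (21.8%) had a protein-coding neighbour on the opposite strand whose start lay within 500 bases and pointed away, against 6.14% of 22028 protein-coding genes. Among called members, Mrpl50 starts 83 bases from Zfp189, Mrpl54 26 bases from Apba3, Mrpl57 49 bases from Ska3 and Mrps18b 45 bases from Ppp1r10. Of these 4 neighbours, Apba3 alone was also called higher in FosGFP+ libraries, with a log2 fold change of 0.78 ± 0.18 (SE, adjusted p = 0.00807, n = 4 libraries per group by edgeR). Ppp1r10, which starts beside Mrps18b, had a log2 fold change of -0.65 ± 0.28 (adjusted p = 0.147 by edgeR).

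Levels were compared between members per kb of exon, as read counts scaled to a common library size (CPM) with the trimmed mean of M-values, TMM. The member median was 8.90 CPM per kb in the reporter table and 8.12 in the knockout table. Mrps6, a small-subunit protein of bacterial descent, had the highest level in both, at 66.7 ± 31.3 CPM per kb over the 8 reporter libraries and 67.0 ± 10.4 over the 6 knockout-set libraries (SD). By group it averaged 93.4 ± 19.0 CPM per kb in FosGFP+ and 40.0 ± 5.46 in FosGFP- libraries. The order of the next genes differed by group: Mrpl54 (49.8 ± 11.2 CPM per kb) came before Mrps28 (41.7 ± 4.79) and Mrps7 (39.7 ± 6.70) in FosGFP+ libraries, and Mrps28 (37.2 ± 6.04) before Mrpl54 (26.3 ± 6.71) and Mrpl28 (23.6 ± 5.45) in FosGFP- libraries. The spreads of Mrpl54 and Mrps28 overlap in both groups. Over both groups of the knockout table the order was Mrpl54 at 40.5 ± 16.6, Mrps28 at 39.5 ± 12.9, Mrpl28 at 30.8 ± 10.3, Mrps7 at 27.6 ± 6.00 and Mrpl52 at 27.4 ± 9.21 CPM per kb. The spreads of these 5 overlap.

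At the low end of the reporter table, the lowest tested member was Mrps35 in FosGFP+ libraries at 1.38 ± 0.37 CPM per kb and Mrpl19 in FosGFP- libraries at 1.41 ± 0.54. Over both groups Mrps25 averaged 1.93 ± 0.37, Mrps35 1.91 ± 0.82 and Mrpl19 1.77 ± 0.80 CPM per kb. Mrps36, named as a ribosomal protein but known as a subunit of the 2-oxoglutarate dehydrogenase complex, had 2.37 ± 0.85 CPM per kb there and 1.63 ± 0.60 in the knockout table. Mrpl53, a large-subunit protein, had 0 to 3 counts per library in each table and was not tested. GENCODE lets 88.0% of its exonic bases overlap those of Gm42688 on the same strand, so reads may not have been assigned to it. Apart from Mrpl53, the highest member lay 37.7-fold above the lowest in the reporter table and 41.1-fold in the knockout table. The ranking of members was alike in both, with a Spearman rho of 0.968 across 78 members. Each gene has the same length and sequence in both, and genes are not independent replicates.

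**Figure D1:**
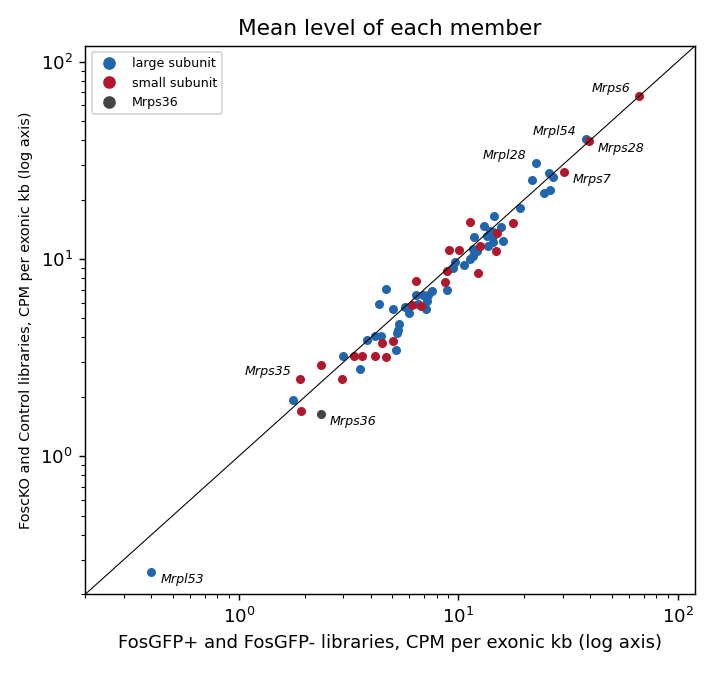
Mean level of each of the 78 members in CPM per exonic kb, with the 8 reporter libraries on the x axis and the 6 knockout-set libraries on the y axis (log axes, 1 point per gene, the line marks equal levels). Points follow the line from Mrpl53 at the lower left to Mrps6 at the upper right, with small-subunit (red) and large-subunit (blue) members intermixed.

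Because the library kit does not keep the strand, reads of overlapping genes cannot be told apart. Mrps25 shares 69.8% of its exonic bases with Nr2c2, Mrps34 63.4% with Mapk8ip3, Mrpl19 36.0% with Gcfc2, Mrpl43 33.4% with Twnk and Mrps18b 30.5% with the antisense gene Gm16279. Mrps34 also shares 37% with Nme3 on the same strand. The levels of these 5 members are uncertain to that extent. Smaller overlaps touch other members too, such as Mrps6, which shares 19.9% with Gm49711 and 10.4% with Slc5a3, both on the same strand.

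Before the comparisons, the libraries were set against their labels. Fos mRNA was lower in the libraries labelled FosGFP+ (3098 to 5398 CPM) than in those labelled FosGFP- (7908 to 12883 CPM), with a log2 fold change of -1.25 ± 0.21 (adjusted p = 9.33e-04 by edgeR). The libraries labelled FoscKO had 8442, 2876 and 3805 CPM of Fos, against 5044, 5025 and 4733 CPM in those labelled Control (log2 fold change 0.031 ± 0.39, adjusted p = 0.996 by edgeR). Neither result follows the simplest reading of the labels for Fos mRNA. However, FosGFP is a reporter and not Fos mRNA itself, and reads outside the removed exons would not show a deletion. Whether the labels hold was not tested. Group names are therefore those of the labels throughout. Gene counts per library were 3806776 to 5983711 in FosGFP+, 2652230 to 4067543 in FosGFP-, 4797954 to 10241655 in FoscKO and 5326686 to 6930696 in Control. FosGFP+ libraries had 17.0 to 23.2% of their reads in genes, against 10.3 to 14.1% in FosGFP-. An even background, read from 1423 olfactory, vomeronasal and taste receptor genes, would make up 6.42 to 10.7% of gene counts in FosGFP+ libraries and 13.1 to 19.4% in FosGFP- libraries.

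Satellite cell markers summed to 7530 to 11200 CPM in FosGFP+ libraries and 3960 to 6280 CPM in FosGFP- libraries. Of these 10 markers 3 were called higher (Vcam1, Sdc4 and Itgb1), while Pax7 overlapped at 38.7 to 79.6 CPM in FosGFP+ and 41.8 to 85.9 CPM in FosGFP-. Fold changes were positive for 6 of the 10 and negative for 4, with a median of 0.20 on the log2 scale. Endothelial markers summed to 174 to 213 CPM in FosGFP+ and 191 to 295 CPM in FosGFP- libraries. All 7 tested had fold changes below 0, and 1 was called lower. Smooth muscle and pericyte markers summed to 167 to 290 CPM in FosGFP+ and 137 to 419 CPM in FosGFP-. Of these 5 markers 4 had fold changes below 0, and 1 was called lower. No leukocyte, fibro-adipogenic, mature fibre or erythroid marker was called. Fold changes were below 0 for all 5 tested leukocyte markers and 4 of 5 fibro-adipogenic markers, and above 0 for 8 of 10 mature fibre markers. Erythroid markers summed to 2.56 to 5.22 CPM in FosGFP+ and 1.73 to 7.35 CPM in FosGFP- libraries, so the groups overlapped. Of these 5 markers, Hba-a1 and Hba-a2 had no count in any FosGFP+ library. In the second table no marker was called, and mature fibre markers summed to 524 to 1700 CPM in FoscKO and 1460 to 3130 CPM in Control libraries, with 9 of 10 fold changes below 0. The part of these differences in the member values was not tested.

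In FosGFP+ against FosGFP- libraries, 14 of the 77 tested members were higher and none was lower at an adjusted p under 0.05 by edgeR's quasi-likelihood test. Over all 20698 genes tested, 10.3% were called higher and 1.85% lower. Same-level genes hereafter are the 4319 other genes whose mean CPM lay between the members' lower and upper quartile, 13.9 and 35.9 CPM. Of these, 4.63% were higher and 2.87% lower. The member count also takes in members outside that window: Mrps6, Mrps7 and Mrpl17, all called, lay above 35.9 CPM in every reporter library. How much of the difference in shares goes with level was not tested. Fold changes were positive for 57 members and negative for 20, with a member median of 0.31 on the log2 scale, against -0.18 for all genes and -0.16 for same-level genes. The sign of the member median turned to -0.098 with library totals and to -0.29 with TMM from genes of at least 50 CPM, where the medians of all genes were -0.58 and -0.77. The calls depended on the scaling too, as given with the individual genes below. What kept its sign in all 18 fits was the distance between members and same-level genes, 0.47 with TMM and 0.38 to 0.51 over the other 17 fits. Against the 1357 same-level protein-coding genes of like exonic length, a set chosen after seeing the data, the distance was 0.23, and 8.55% of that set were called higher, against 18.2% of members. Calls and fold changes ran with level over all genes: of the 4002 tested genes of at least 50 CPM 41.9% were called higher, with a median of 0.57, and the Spearman rho of fold change with mean CPM was 0.531 across all genes and 0.39 across members. Since these are bulk samples, fewer cells of a type and less RNA per cell cannot be told apart.

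**Figure D2:**
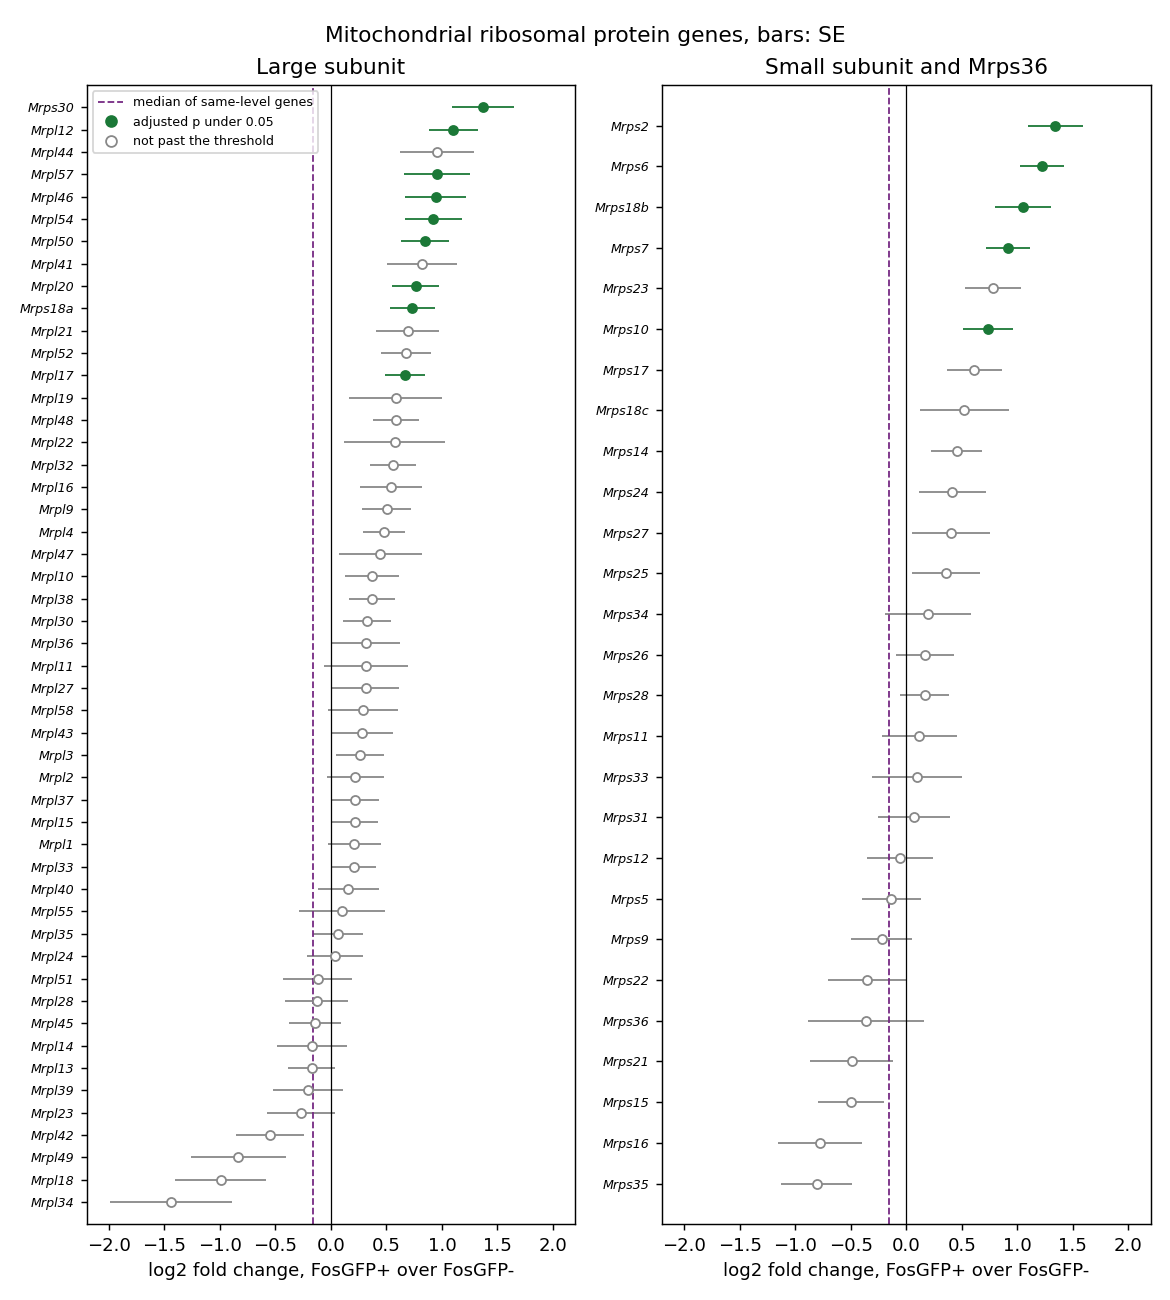
Log2 fold change (x axis) with its SE for each of 77 tested members, FosGFP+ over FosGFP- under TMM scaling, sorted within the large subunit (left) and the small subunit with Mrps36 (right). Filled points are the 14 members past an adjusted p of 0.05, all above 0, and the dashed line is the median of same-level genes at -0.16; library totals put the median of all genes at -0.58 and leave 4 members called higher and 5 called lower.

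Counts were set apart more often upward than downward among the members. The 4 FosGFP+ libraries lay wholly above the 4 FosGFP- libraries for 22 members and wholly below for 4, against 12.9% and 6.45% of all genes tested, and 7.52% and 7.18% of same-level genes. At an unadjusted p under 0.05 there were 24 higher and 3 lower members, against 16.5% and 9.89% of all genes tested, and 11.3% and 13.6% of same-level genes. The authors' deposited table lists 22 members among its 3422 genes of adjusted p under 0.05, and gives all 22 as higher in FosGFP+ once its sign, which runs FosGFP- over FosGFP+, is turned round. All 14 members called here are in the authors' deposited table, in which 2917 of the listed genes are higher in FosGFP+ and 505 lower.

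Mrps30 had the largest fold change. It is named after the small subunit but was placed in the large subunit of the mammalian ribosome. Its level was 49.6, 48.5, 22.5 and 40.9 CPM in the FosGFP+ libraries, against 17.6, 13.2, 16.7 and 14.9 CPM in the FosGFP- libraries. FosGFP+ library 3 was the lowest of its group and still above every FosGFP- library. The log2 fold change was 1.37 ± 0.28 (SE, n = 4 libraries per group, adjusted p = 0.00368 by edgeR).

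Mrps2, a small-subunit protein of bacterial descent, had 38.6, 44.1, 70.3 and 52.9 CPM in FosGFP+ libraries, against 19.2, 24.98, 21.0 and 15.8 CPM in FosGFP- libraries. The groups did not overlap, and FosGFP+ library 3, low for Mrps30, was the highest for Mrps2. The log2 fold change was 1.34 ± 0.25 (adjusted p = 0.00206 by edgeR). Mrps6, the member with the highest level per kb, had 167, 168, 109 and 129 CPM in FosGFP+ libraries, against 55.0, 68.0, 53.2 and 69.0 CPM in FosGFP- libraries. All FosGFP+ libraries stood above all FosGFP- libraries, with a log2 fold change of 1.22 ± 0.20 and the smallest adjusted p of the members (8.41e-04 by edgeR). These 3 genes, Mrps30, Mrps2 and Mrps6, were called higher in all 18 fits, including those by library totals and those without 1 library.

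Mrpl12 forms the flexible stalk of the large subunit, which brings translation factors to the ribosome. It had 52.7, 64.96, 46.6 and 56.0 CPM in FosGFP+ libraries, against 33.2, 23.8, 25.02 and 20.3 CPM in FosGFP- libraries, with no overlap. The log2 fold change was 1.10 ± 0.22 (adjusted p = 0.00373 by edgeR), and the call was lost only with TMM from genes of at least 50 CPM. The other stalk members, Mrpl10 and Mrpl11, which sit at its base, were not past the threshold at 0.37 ± 0.25 and 0.32 ± 0.38, and their libraries overlapped. The sign of both turned negative with library totals.

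Mrps18a, Mrps18b and Mrps18c are 3 relatives of 1 bacterial protein, S18, with Mrps18a known from the large subunit and the others from the small subunit. Mrps18b had 24.3, 41.8, 40.1 and 35.9 CPM in FosGFP+ libraries, against 16.3, 14.6, 20.1 and 17.3 CPM in FosGFP- libraries. Mrps18a had 57.0, 53.5, 50.3 and 47.9 CPM in FosGFP+ libraries, against 35.6, 31.9, 33.1 and 24.8 CPM in FosGFP- libraries. Neither gene's groups overlapped, and both were called higher, with log2 fold changes of 1.06 ± 0.25 for Mrps18b (adjusted p = 0.0115 by edgeR) and 0.73 ± 0.20 for Mrps18a (adjusted p = 0.0269 by edgeR). Mrps18c was lower in level, at 5.97 to 10.7 CPM in FosGFP+ and 3.79 to 7.75 CPM in FosGFP- libraries. Its groups overlapped, and its log2 fold change of 0.52 ± 0.40 did not pass the threshold (adjusted p = 0.419 by edgeR).

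Of the other called members, Mrps7 and Mrps10 are small-subunit proteins of bacterial descent. Mrps7 had 77.4, 103, 77.6 and 71.2 CPM in FosGFP+ libraries, against 42.3, 40.8, 51.2 and 39.7 CPM in FosGFP- libraries (log2 fold change 0.92 ± 0.20, adjusted p = 0.00534 by edgeR). Mrps10 ranged over 31.2 to 42.8 CPM in FosGFP+ and 19.5 to 24.2 CPM in FosGFP- libraries. Neither gene's groups overlapped. In the large subunit, Mrpl17, which lines the exit of the peptide tunnel, ranged over 119 to 147 CPM in FosGFP+ and 77.97 to 104 CPM in FosGFP- libraries. Mrpl20, whose bacterial relative binds ribosomal RNA early in assembly, ranged over 39.3 to 52.1 CPM in FosGFP+ and 23.8 to 30.5 CPM in FosGFP-. These 2 genes did not overlap between groups either, with log2 fold changes of 0.67 ± 0.18 for Mrpl17 and 0.76 ± 0.21 for Mrpl20.

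The last 4 called members are large-subunit proteins without a bacterial relative. Mrpl46, part of the central protuberance that faces the small subunit, ranged over 21.1 to 39.1 CPM in FosGFP+ and 12.2 to 20.1 CPM in FosGFP- libraries. Mrpl50 ranged over 60.8 to 99.0 CPM in FosGFP+ and 33.5 to 48.3 CPM in FosGFP- libraries. None of these overlapped, and the same held for Mrpl54 (33.3 to 52.0 CPM in FosGFP+ and 15.8 to 28.8 CPM in FosGFP-) and Mrpl57 (20.7 to 35.3 CPM in FosGFP+ and 9.49 to 18.8 CPM in FosGFP-). Their log2 fold changes were 0.94 ± 0.28, 0.84 ± 0.22, 0.92 ± 0.26 and 0.96 ± 0.30 in the order Mrpl46, Mrpl50, Mrpl54 and Mrpl57. Adjusted p-values were 0.0352, 0.0171, 0.0268 and 0.0473 in the same order (edgeR).

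**Figure D3:**
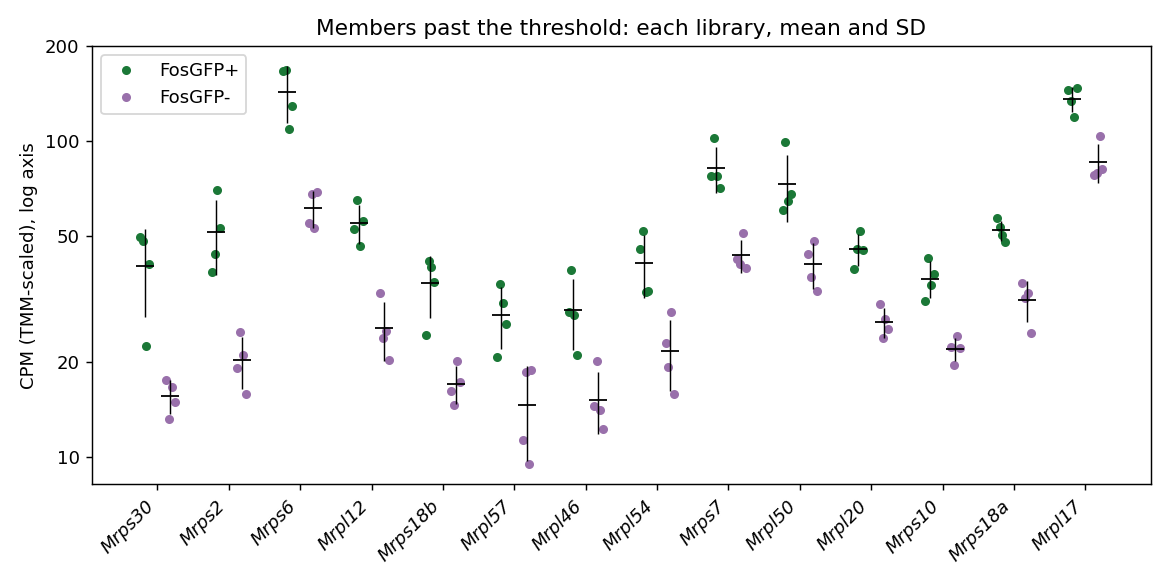
TMM-scaled CPM (log axis) of the 14 members called higher, with 1 point per library, FosGFP+ (green) left of FosGFP- (purple), and black marks for the mean and SD (n = 4 each). For every gene shown the green points lie above the purple ones; under library totals 4 of these genes, Mrps30, Mrps2, Mrps6 and Mrpl12, were still called higher.

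Leaving out single libraries moved the number of called members. It was 8 without FosGFP+ library 2 and 9 without FosGFP- library 1, 2 or 4, against 14 with all libraries, and no member was called lower in any of these fits. Without FosGFP+ library 2 that was 10.4% of members, beside 7.59% of all genes and 3.19% of same-level genes. Without FosGFP- library 1, 2 or 4 it was 11.7%, beside 7.96%, 8.43% and 8.34% of all genes. Same-level genes were at 3.42%, 3.47% and 2.93% there. With library totals the call remained for 4 of the 14 (5.19% of members called higher, beside 4.86% of all genes), and with TMM from genes of at least 50 CPM for 3 of them (3.9%, beside 3.49%). After the even background was subtracted 7 remained, 9.33% of the members then tested, beside 8.42% of all genes. In these 3 fits the share of members called higher was near that of all genes. Same-level genes called higher made up 1.29%, 0.896% and 2.56% in the same order of fits. Mrpl57 and Mrps10 were each called in 7 of the 17 other fits.

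At the other end, no member passed the threshold downward under TMM. The lowest was Mrpl34, a small basic protein of bacterial descent, at 0.95, 1.25, 1.42 and 1.96 CPM in FosGFP+ libraries, against 2.45, 5.74, 4.31 and 2.99 CPM in FosGFP- libraries. The groups did not overlap, but these levels rest on 4 to 20 counts per library, and the log2 fold change of -1.44 ± 0.55 had an adjusted p of 0.104 (edgeR). Mrpl18 had 6.67, 4.18, 2.28 and 5.66 CPM in FosGFP+ libraries, against 9.80, 11.2, 8.05 and 8.66 CPM in FosGFP- libraries, also without overlap (log2 fold change -0.99 ± 0.41, adjusted p = 0.130 by edgeR). Mrpl49 ran from 3.34 CPM in FosGFP+ library 1 to 30.9 CPM in FosGFP+ library 2, with 24.5 to 33.1 CPM in FosGFP- libraries, and its fold change of -0.83 ± 0.43 became -0.44 without FosGFP+ library 1. With library totals 5 members were called lower (6.49%), Mrpl34, Mrpl18, Mrpl49, Mrps35 and Mrpl42, beside 10.8% of all genes and 18.6% of same-level genes. With TMM from genes of at least 50 CPM 9 were (11.7%), beside 25.4% of all genes and 39.5% of same-level genes. Both shares of members lie below those of all genes.

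Calls fell in both subunits. In the large subunit 9 of 50 tested members were called higher, with a median log2 fold change of 0.32, and in the small subunit 5 of 26, with a median of 0.18, where 10.3% of all genes tested and 8.55% of same-level protein-coding genes of like length were called higher. Members of bacterial descent gave 7 of 45 and those of mitochondrial origin 7 of 32, with medians of 0.32 and 0.29, Mrps18a and Mrps18b being counted among those of mitochondrial origin as extra copies. The split by origin also takes in Mrps36, which was counted in neither subunit. All 5 members of the central protuberance had positive fold changes, from 0.16 to 0.94, and 1 was called. Of 8 members around the exit tunnel 5 were positive and 1 was called, and Mrpl45, which holds the ribosome to the inner membrane, was at -0.14 ± 0.23. Mrpl58, which can release stalled peptides, was at 0.29 ± 0.32 and Mrpl38, of the central protuberance, at 0.37 ± 0.21. Mrps12, at the decoding site of the small subunit, was at -0.054 ± 0.30. None of these 4 was past the threshold, and their libraries overlapped.

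The summed level of all members followed the scaling. With TMM it was 2345, 2607, 2297 and 2372 CPM in the FosGFP+ libraries, against 1870.5, 1718.5, 1740.5 and 1854.5 CPM in the FosGFP- libraries, without overlap. As a share of gene counts (plain CPM) it was 2072, 2086, 2121 and 1984 in FosGFP+ libraries, against 2064, 1805, 1877 and 2341 in FosGFP- libraries. On that scale the groups overlapped, and FosGFP- library 4 was the highest of the 8. The ratio of large-subunit to small-subunit sums, which no scaling moves, was 2.02 to 2.15 in FosGFP+ and 2.12 to 2.31 in FosGFP- libraries, so the groups overlapped.

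**Figure D4:**
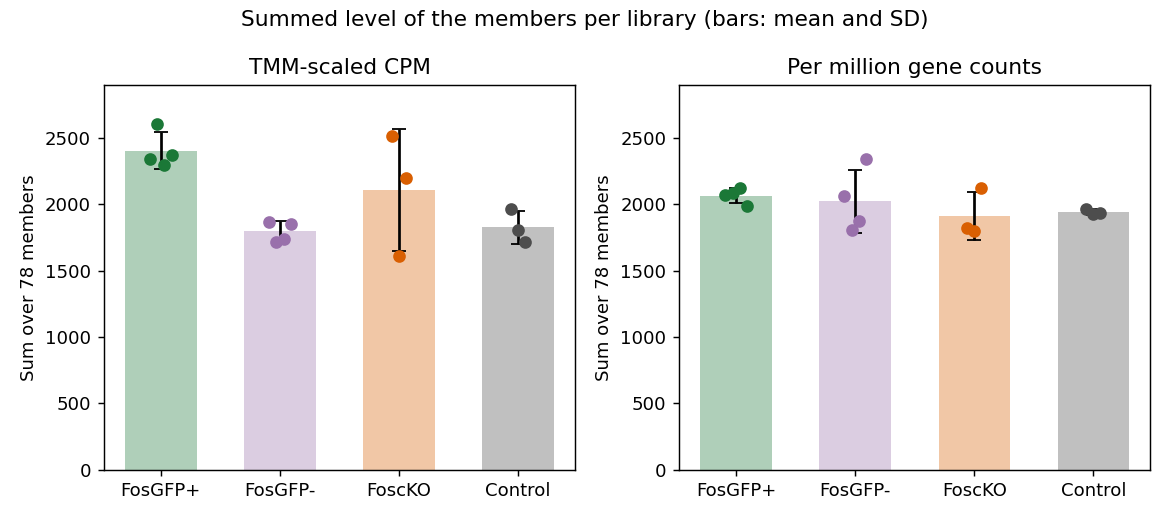
Summed level of the 78 members in each library as TMM-scaled CPM (left) and plain CPM of gene counts (right), with bars for the mean and SD and points for libraries (n = 4 for FosGFP+ and FosGFP-, n = 3 for FoscKO and Control). FosGFP+ stands above FosGFP- on the left (2297 to 2607 against 1718.5 to 1870.5) and overlaps it on the right (1984 to 2121 against 1805 to 2341), whereas FoscKO and Control overlap on both.

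Genes that build and serve the mitochondrial ribosome were read from lists of the same pathway. Of 5 ribosomal proteins with other names none was called, the 2 smallest p-values being those of Chchd1 (0.65 ± 0.26) and Aurkaip1 (0.42 ± 0.21). Of 25 tested assembly and rRNA modification genes 4 were called higher and none lower, with a median log2 fold change of 0.21, where 10.3% of all genes were called higher and 1.85% lower. They were Mrm3, which methylates the large rRNA (1.36 ± 0.27), Nsun4, which methylates the small rRNA (0.94 ± 0.23), Rcc1l (0.96 ± 0.24) and Ngrn (0.91 ± 0.26), both assembly factors. Only Mrm3 among these 4 kept its call with library totals, where Mrm2 and Mtg2 were called lower, and none did with TMM from genes of at least 50 CPM.

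Of 14 genes for mitochondrial transcription, replication and their regulators 6 were called higher, with a median of 0.78, where 10.3% of all genes and 41.9% of genes of at least 50 CPM were called higher. Myc, a growth regulator, had 3278, 3303, 2359 and 2914 CPM in FosGFP+ libraries, against 917, 886, 1201 and 794 CPM in FosGFP- libraries (log2 fold change 1.64 ± 0.18, adjusted p = 1.33e-04 by edgeR). Tfam, which packs and transcribes mitochondrial DNA, was at 1.11 ± 0.20, Polg, its polymerase, at 0.98 ± 0.18, and Pprc1, a coactivator of NRF1, at 1.42 ± 0.27. These 4 genes kept their calls with library totals and with TMM from genes of at least 50 CPM. Of the same list, Ppargc1a was called lower in both of these fits, and Ppargc1b in the second. Among the other genes of the 6 called higher was Twnk, which shares exonic bases with Mrpl43 as given above.

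Factors and enzymes that serve translation had list medians below 0, as had all genes tested (-0.18) and same-level genes (-0.16). Summed levels of the translation factors were 448 to 501 CPM in FosGFP+ and 438 to 469 CPM in FosGFP- libraries. Those of the synthetases were 599 to 640 CPM and 548 to 637 CPM, so the groups overlapped for both lists. Of 16 mitochondrial translation factors 1 was called, Mtfmt, which formylates the initiator tRNA, at 5.23 ± 1.36 CPM in FosGFP+ and 12.7 ± 3.29 CPM in FosGFP- libraries (log2 fold change -1.28 ± 0.37, adjusted p = 0.0316 by edgeR). The call was lost without the filter, with the replicate number as a block and after background subtraction. The list median was -0.19. Of 16 mitochondrial aminoacyl-tRNA synthetases Mars2 (0.95 ± 0.25) and Yars2 (0.79 ± 0.25) were called higher, with a list median of -0.39, and both calls were lost with library totals, where Cars2, Iars2 and Nars2 were called lower. Over all genes tested, 10.3% were called higher and 1.85% lower with TMM, and 10.8% lower with library totals. With TMM from genes of at least 50 CPM 9 synthetases were called lower and none higher, in a fit that called 25.4% of all genes and 39.5% of same-level genes lower. Yars2 also lost its call with the block and after background subtraction. None of 9 tested mitochondrially encoded genes was called, the smallest p-values being those of mt-Nd1 (0.41 ± 0.17) and mt-Rnr1, the small rRNA (-0.30 ± 0.18). With library totals mt-Rnr1 and mt-Rnr2, the 2 rRNAs of this ribosome, were called lower. Of the 15 listed genes, mt-Co2, mt-Co3, mt-Atp6, mt-Atp8 and mt-Nd4l had no count in any library, so the mitochondrial mRNAs were not summed. Differences between these lists and the members were not tested.

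In FoscKO against Control libraries, no member was called in either direction, nor was any of the 21885 genes tested by edgeR (0% called higher and 0% lower). At an unadjusted p under 0.05 there was 1 higher and no lower member, against 3.56% higher and 1.96% lower of all genes tested, and 4.39% higher and 1.71% lower of same-level genes, 1208 genes in all. DESeq2 called 59 genes higher and 32 lower, and limma-voom 4 higher and 6 lower, with no member among them. Of the 77 tested members 56 had positive and 21 negative fold changes, with a median of 0.19 on the log2 scale, against 0.075 for same-level genes and -0.037 for all genes. The distance of 0.11 from same-level genes became -0.023 against same-level protein-coding genes of like length, and the member median itself became -0.067 with library totals.

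The members with the smallest p-values are given by library. Mrpl28, a large-subunit protein of bacterial descent, had 63.1, 35.04 and 56.7 CPM in FoscKO libraries, against 39.3, 33.1 and 27.5 CPM in Control libraries. FoscKO library 2 lay inside the Control range, and the log2 fold change was 0.63 ± 0.29 (unadjusted p = 0.0477 and adjusted p = 0.894 by edgeR, n = 3 libraries per group). Mrpl3, which lies near the site where peptide bonds form, had 60.2, 30.01 and 50.7 CPM in FoscKO libraries, against 39.7, 26.6 and 21.0 CPM in Control libraries, with FoscKO library 2 again inside the Control range. Mrpl39, of the exit tunnel, had 21.9, 14.0 and 18.8 CPM in FoscKO libraries, against 13.7, 6.62 and 9.94 CPM in Control libraries, and its groups did not overlap. Their log2 fold changes were 0.70 ± 0.33 for Mrpl3 and 0.86 ± 0.41 for Mrpl39 (adjusted p = 0.910 for each by edgeR). Mrpl48, of the central protuberance, and Mrpl50 were at 0.57 ± 0.28 and 0.55 ± 0.28.

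FoscKO libraries lay wholly above Control libraries for 6 members (Mrpl39, Mrpl10, Mrps25, Mrpl44, Mrpl37 and Mrpl17) and wholly below for 1 (Mrpl51), against 5.75% and 6.47% of all genes tested and 7.46% and 4.5% of same-level genes. The summed member level was 2518, 1609 and 2196 CPM in FoscKO libraries, against 1964, 1804 and 1718 CPM in Control libraries. FoscKO library 1 was the highest of the 6 and FoscKO library 2 the lowest, so the FoscKO group enclosed the Control group. In the same order the reads in genes were 30.2, 15.9 and 22.7% of the library in FoscKO, against 19.0, 18.7 and 16.9% in Control. Without FoscKO library 1 the member median became 0.039, and without FoscKO library 2 it became 0.37, with 13 members (16.9%) at an unadjusted p under 0.05, near the 14.1% of all genes in that fit, and none called. Whether these library differences set the member values was not tested. As plain CPM the members summed to 1821, 1799.7 and 2120.1 in FoscKO libraries, against 1968, 1928 and 1932 in Control libraries.

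**Figure D5:**
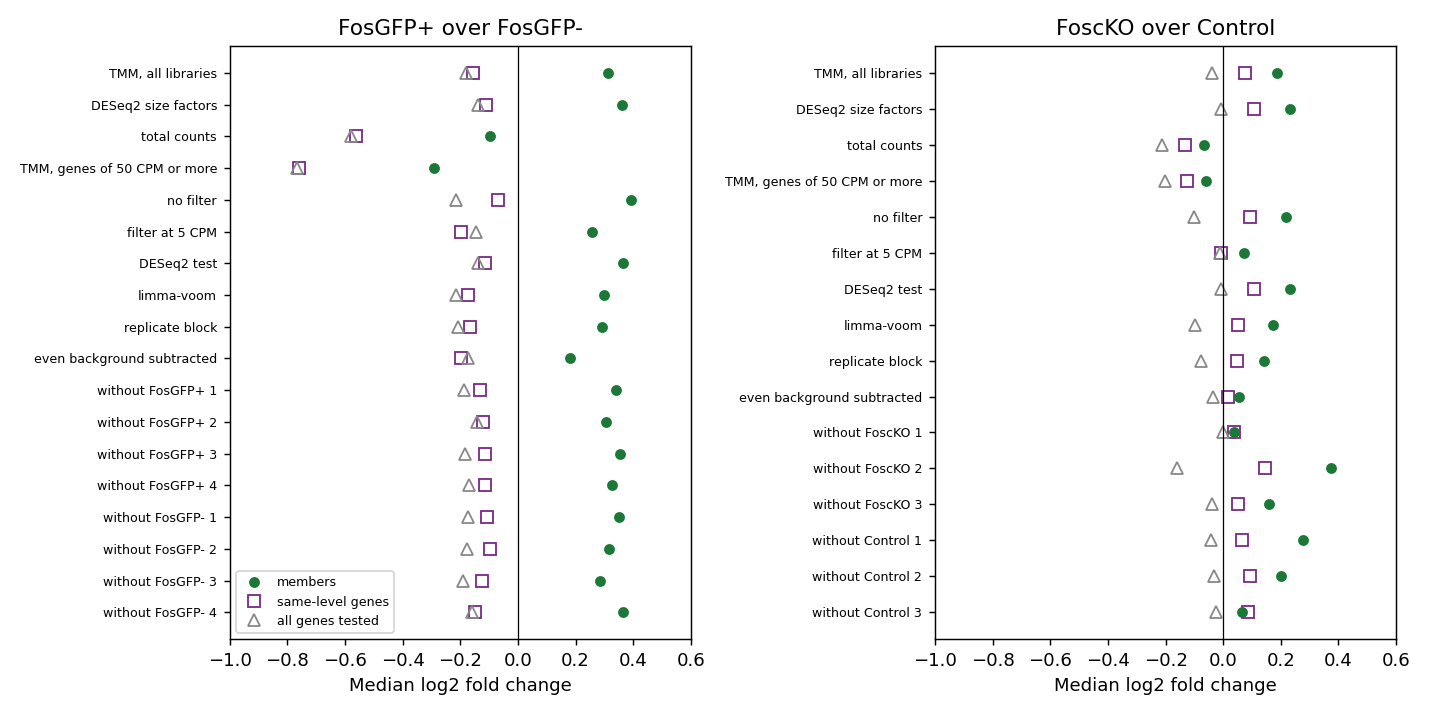
Median log2 fold change (x axis) of members (filled circles), same-level genes (squares) and all genes tested (triangles) in each fit (rows), FosGFP+ over FosGFP- on the left and FoscKO over Control on the right. On the left members lie right of same-level genes in every row while the whole row shifts with the scaling; on the right the members run from -0.067 with library totals to 0.37 without FoscKO library 2.

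The 4 members with the largest fold changes by reporter were read in the knockout table too. Mrps30 had 43.2, 17.9 and 33.7 CPM in FoscKO libraries, against 23.6, 20.5 and 23.1 CPM in Control libraries (log2 fold change 0.50 ± 0.34), and Mrps2 was at 0.19 ± 0.33. Mrps6 was at 0.085 ± 0.25 and Mrpl12 at -0.033 ± 0.29. The libraries of all 4 genes overlapped between groups, and none was past the threshold. Whether the fold changes of the 2 comparisons differ was not tested, since they come from separate tables. Across the 77 members the fold changes of the 2 comparisons had a Spearman rho of 0.112, against 0.264 across 19820 genes tested in both, with genes not independent replicates.

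No gene of the companion lists was called in FoscKO libraries. The smallest p-value among them was that of Polrmt, the mitochondrial RNA polymerase, at 74.8, 20.5 and 30.9 CPM in FoscKO libraries, against 18.5, 16.5 and 18.9 CPM in Control libraries. Its groups did not overlap, but FoscKO library 1 stood far above the other 2, and the log2 fold change of 1.23 ± 0.41 had an adjusted p of 0.711 (edgeR). Polg was at 0.69 ± 0.25 (adjusted p = 0.783 by edgeR). Assembly factors Rcc1l and Noa1 were at 0.89 ± 0.37 and -0.78 ± 0.35, and the synthetases Wars2 and Ears2 at -1.11 ± 0.44 and 0.68 ± 0.33. List medians ran from -0.036 for mitochondrially encoded genes to 0.29 for synthetases, and the median of transcription genes was 0.020. Library totals turned the sign for translation factors, assembly genes and transcription genes.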

How the data were processed

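Per the labels' protocols, libraries came from SMART-Seq v4 cDNA cut and barcoded with Nextera XT and were read on a HiSeq instrument. Tools named by the submitters' processing notes, without their roles, are HTSeq 0.6.1, STAR 2.5.0c, limma and DESeq2 1.20.0, with GRCm38 as build. The authors deposited raw counts per Ensembl gene in 2 tables, and tables of their own log2 fold changes and p-values; 14 columns of per-library values there match no label and were not used. Lines that name no gene (43.6 to 60.7% of reads in no feature in the reporter table) were left out. GENCODE M21 gave gene symbols, exon lengths and positions.

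Each table was fitted apart with edgeR 4.0.16 (R 4.3.3): filterByExpr, TMM, robust quasi-likelihood F-test, two-sided, Benjamini-Hochberg over all genes kept. Levels are TMM-scaled CPM. Intervals shown are SD over libraries or SE of the fit. Same-level genes are the other tested genes between the quartiles of the members' mean CPM. Members, companion lists and motifs were chosen with earlier results of these data known. Genes named are Fos, called members, those of extreme level or special place, and the companion genes with the smallest p; Mrpl17, Tfb2m, Twnk, Mrpl34, Mrpl18, Mrpl49, Mrpl42, promoter neighbours and members listed for non-overlap were added after their values were seen. Alternatives were DESeq2 size factors, library totals, TMM from genes of at least 50 CPM, no filter, a filter at 5 CPM, DESeq2 1.42.0, limma-voom 3.58.1, the replicate number as a block, an even background subtracted, and each library left out. The fits were tested on simulated data. Columns were mapped by title, and no 2 libraries held identical counts.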

Additional observations from a re-analysis of the deposited data

Results flagged for a closer look

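In FosGFP+ library 2 the summed level of the small-subunit members was 863 CPM, against 752 to 758 CPM in the other 3 FosGFP+ libraries. It was marked because its gap to the nearest library took up most of the group's range. A sum or gene was checked in this way in 60 groups of 4 libraries, and chance marks about 1 group in 20. This library also had the most gene counts of its group (5983711) and the smallest even background (6.42%), and whether either moved the sum was not tested.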

How the results depend on the processing

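In FosGFP+ against FosGFP- libraries, library totals gave 4 members called higher (4.86% of all genes) and 5 lower (10.8% of all genes) with a member median of -0.098 on the log2 scale, and TMM from genes of at least 50 CPM gave 3 higher (3.49% of all genes) and 9 lower (25.4%) with a median of -0.29. Subtracting the even background gave 7 higher (8.42% of all genes), a median of 0.18 and a distance of 0.38 from same-level genes. Without the filter the median was 0.39. Like exonic length reduced the distance to 0.23. Leaving out a library gave 8 to 16 members called higher (10.4 to 20.8%, beside 7.59 to 9.83% of all genes), and the distance stayed between 0.41 and 0.51. With the replicate number as a block, 12 members (15.6%, beside 9.67% of all genes) were called higher, all of them among the 14. Same-numbered libraries correlated at 0.28, 0.25, 0.17 and 0.0059. Without values for differently numbered libraries beside them, these cannot decide whether the numbers mark pairs. The labels state no pairing, so the main fit did not take the numbers as pairs. DESeq2 called 20 members higher (26%, beside 13.4% of all genes) and limma-voom 15 (19.5%, beside 10.7%), none lower.

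Signs of members not past the threshold turned with the scaling. With library totals Mrpl10 was at -0.026, Mrpl11 at -0.087, Mrpl38 at -0.039 and Mrpl58 at -0.12. With TMM from genes of at least 50 CPM Mrpl10 was at -0.22, Mrpl11 at -0.28, Mrpl38 at -0.23, Mrpl58 at -0.30 and Mrps18c at -0.090. Mrps12 was at 0.039 without the filter and ran from -0.19 to 0.15 as single libraries were left out.

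In FoscKO against Control libraries, no member was called in any fit, the block included, which called 23 genes higher and 20 lower in all. The member median was -0.067 with library totals and -0.058 with TMM from genes of at least 50 CPM. The distance from same-level genes was -0.023 with like exonic length and ran from -0.023 to 0.23 as single libraries were left out. Mrps2 was at -0.070 and Mrps6 at -0.15 with library totals, and Mrps2 at -0.058 and Mrps6 at -0.14 with TMM from genes of at least 50 CPM. Mrps6 was at -0.015 with a filter at 5 CPM and at -0.070 after background subtraction. Mrpl12 was at 0.0081 with DESeq2 size factors and at 0.0085 with the DESeq2 test. As single libraries were left out, Mrps2 ran from -0.12 to 0.39, Mrps6 from -0.11 to 0.24 and Mrpl12 from -0.13 to 0.16. The cause of these turns was not tested. Low counts limit the precision for members such as Mrpl34 and Mrps36, with 4 to 20 and 5 to 19 counts per reporter library.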
